A study of Mus musculus with 14 samples.

Results

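The Schlafen genes are a family that lies side by side on mouse chromosome 11. Its 7 members examined here were Slfn1, Slfn2, Slfn3, Slfn4, Slfn5, Slfn8 and Slfn9, taken by their symbols out of 50508 gene symbols in each of 2 tables of bulk RNA-sequencing counts. Schlafen proteins come in a short form (Slfn1 and Slfn2), an intermediate form (Slfn3 and Slfn4) and a long form with a helicase-like domain (Slfn5, Slfn8 and Slfn9). Several members are induced by type I interferon. In mice, loss of Slfn2 function leaves T cells unable to stay quiescent, forced Slfn1 expression slows thymocyte growth, and the Slfn2 protein binds transfer RNAs and shields them from cleavage under oxidative stress.

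The study examined αβ T cells of an innate-like, killer kind (ILTCk), which are found in tumours, and the progenitors of these cells in the thymus (ILTCkP). Each of 5 groups held 2 libraries. ILTCkP and CD8SP (CD8 single-positive thymocytes) came from the thymus of C57BL/6 mice. The progenitors were gated as negative or dull for CD4 and CD8α and as not binding a CD1d tetramer, and the rest of that gate is not given in the sources used here. The other groups were NK1.1+ ILTCk, their NK1.1- ILTCk counterparts, and conventional T cells with PD-1, called PD1+ Tconv. Their mice carry the label retrogenic, which means that stem cells transduced with a T cell receptor had rebuilt the blood. Which receptor, the mice's age and the tumour model is not given in the sources used here. NK1.1+ ILTCk were sorted from tumours as CD45+ TCRγδ- TCRβ+ CD4- CD8α+ cells that were PD-1- and NK1.1+, and PD1+ Tconv as the same cells that were PD-1+ and NK1.1-. For NK1.1- ILTCk neither gate nor tissue is given in the sources used here; that group shares its table with the tumour sorts, which is called the tumour table below. The characteristics of both ILTCk groups name them ILTCkP while their titles say ILTCk, and the titles were followed. The libraries are labelled biological replicates with no statement of separate animals. The p-values therefore reflect the spread between these libraries alone, and that spread may be technical. The 4 single-cell libraries of the series were not analysed here.

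Total counts lay between 16530085 and 32097301 per library. Pdcd1, which encodes PD-1, stood at 7.41 and 5.05 CPM (counts scaled by TMM to a common library total) in NK1.1+ ILTCk and at 17.7 and 29.2 CPM in NK1.1- ILTCk, against 752 and 518 CPM in PD1+ Tconv. Klrb1c, which encodes NK1.1, stood at 309 and 68.5 CPM in NK1.1+ ILTCk and at 29.9 and 12.4 CPM in NK1.1- ILTCk, against 39.5 and 2.35 CPM in PD1+ Tconv. All 8 T cell markers were present in every library. The tumour table also held transcripts of other cells. The summed level of 12 macrophage and monocyte markers was 6595 and 18220 CPM in NK1.1+ ILTCk and 3399 and 3643 CPM in NK1.1- ILTCk, against 480 and 1844 CPM in PD1+ Tconv, with 0 of the 12 at 0 counts. The summed level of 8 epithelial markers lay between 5666 and 9816 CPM in the ILTCk libraries of that table and at 2277 and 1991 CPM in PD1+ Tconv. Transcripts of glands took up a large share of several libraries. Bpifa2, a salivary protein gene, made up 4.20% of the counts of NK1.1- ILTCk replicate 1 and 19.5% of those of PD1+ Tconv replicate 2, and at most 0.128% in the other 4 libraries. Mucl2, a mucin-like gene, made up 4.26% in NK1.1+ ILTCk replicate 2 and 8.73% in NK1.1- ILTCk replicate 2, and at most 0.0771% in the other 4. PD1+ Tconv replicate 2 stood furthest apart, with 35.2% of its counts in its 10 highest genes, where the other 5 libraries had 6.19% to 18.1%. In the thymic libraries the macrophage sum was 97.6 and 54.8 CPM in ILTCkP and 138 and 103 CPM in CD8SP, and the epithelial sum did not pass 10.2 CPM. In bulk samples, fewer cells of a type and less RNA per cell cannot be told apart.

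With the pseudogene Slfn10-ps and the further gene Slfn14, which lies at its far end, the Schlafen cluster spans chromosome 11 from 82951349 to 83286726 on GRCm38, a stretch of 335.4 kb. In the GENCODE M21 annotation, Slfn5 runs from 82951349 to 82964840, Slfn2 from 83065112 to 83070678, Slfn1 from 83116849 to 83122670, Slfn4 from 83175186 to 83190216 and Slfn3 from 83191330 to 83215154, all on the plus strand. Slfn9 runs from 82978390 to 82991830 and Slfn8 from 83002158 to 83020810, both on the minus strand. The merged exons are 1.864 kb for Slfn1 and 1.664 kb for Slfn2, the short forms. They are 3.411 kb for Slfn3 and 3.964 kb for Slfn4. The long forms have 6.326 kb for Slfn5, 4.091 kb for Slfn8 and 5.965 kb for Slfn9. All 7 members were found among RefSeq promoter windows on GRCm38.p6, which run from 250 bases before to 50 bases after each gene's RefSeq start. RefSeq and GENCODE starts need not agree. The Slfn5 window, from 82951852 to 82952151, lies inside the GENCODE gene, downstream of its start there at 82951349.

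The promoter windows of Slfn1 and Slfn2 are shown because both genes fell in the thymic comparison. The capitals mark the letters ACTTCCTGG, the reverse complement of CCAGGAAGT, which holds the GGAA core of ETS factor sites.
Slfn1 (chr11:83116570-83116869, plus strand): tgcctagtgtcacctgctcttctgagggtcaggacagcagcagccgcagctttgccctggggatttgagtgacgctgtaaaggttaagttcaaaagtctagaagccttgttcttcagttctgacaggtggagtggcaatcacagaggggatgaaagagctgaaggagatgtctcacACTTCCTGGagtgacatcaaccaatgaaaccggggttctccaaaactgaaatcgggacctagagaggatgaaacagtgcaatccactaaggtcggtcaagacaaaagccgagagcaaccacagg
Slfn2 (chr11:83064862-83065161, plus strand): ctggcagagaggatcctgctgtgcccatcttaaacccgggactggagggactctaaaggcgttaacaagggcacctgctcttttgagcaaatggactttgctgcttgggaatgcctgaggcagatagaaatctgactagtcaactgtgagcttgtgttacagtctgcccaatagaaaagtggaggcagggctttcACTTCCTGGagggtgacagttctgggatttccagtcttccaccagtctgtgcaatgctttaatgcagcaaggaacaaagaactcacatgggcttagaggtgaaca
Slfn3 (chr11:83191273-83191312, plus strand): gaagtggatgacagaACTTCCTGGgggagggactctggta
Slfn4 (chr11:83175098-83175137, plus strand): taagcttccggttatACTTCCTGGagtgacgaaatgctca
The last 2 lines are the stretches of the Slfn3 and Slfn4 windows around the same letters. The match lay from -74 to -66 relative to the start in Slfn1, from -55 to -47 in Slfn2, from -42 to -34 in Slfn3 and from -73 to -65 in Slfn4. The short and intermediate forms, 4 of the 7 members, thus share it, and the windows of Slfn5, Slfn8 and Slfn9 do not hold it. On either strand it was found in 0.999% of 27025 genes with a window. These letters were chosen after the sequences had been seen.

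The windows of Slfn8 and Slfn9 are shown because they are close copies of each other. The capitals mark GAAA, any 2 bases and GAAA again, on either strand, the repeat of interferon-stimulated response elements, which bind IRF factors.
Slfn8 (chr11:83020761-83021060, minus strand): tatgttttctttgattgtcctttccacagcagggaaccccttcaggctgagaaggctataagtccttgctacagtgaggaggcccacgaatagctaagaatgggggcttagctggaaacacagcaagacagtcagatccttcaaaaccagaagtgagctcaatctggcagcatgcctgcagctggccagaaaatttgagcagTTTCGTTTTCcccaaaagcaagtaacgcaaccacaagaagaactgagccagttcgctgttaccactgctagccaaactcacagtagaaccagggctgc
Slfn9 (chr11:82991781-82992080, minus strand): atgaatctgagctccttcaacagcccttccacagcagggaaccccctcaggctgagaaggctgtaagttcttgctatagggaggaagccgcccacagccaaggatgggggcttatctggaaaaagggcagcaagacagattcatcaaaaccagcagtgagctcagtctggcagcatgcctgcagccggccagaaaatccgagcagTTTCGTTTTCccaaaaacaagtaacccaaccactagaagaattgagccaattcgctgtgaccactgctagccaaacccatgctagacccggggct
Slfn5 (chr11:82951932-82951971, plus strand): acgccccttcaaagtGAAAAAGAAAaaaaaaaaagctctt
The last line is the stretch of the Slfn5 window around its match. The match lay from -48 to -39 in Slfn8, from -45 to -36 in Slfn9 and from -155 to -146 in Slfn5. A second RefSeq window of Slfn8 places the same letters from -136 to -127. These positions are relative to RefSeq starts, and the Slfn5 match lies downstream of that gene's GENCODE start. This repeat was in the windows of 3 of the 7 members, all long forms, and in those of 3.99% of 27025 genes. No member's window held both letter sets, so no matches overlapped. TTCNNNGAA, the interferon gamma-activated sequence, was in 0 of the 7 windows and in those of 9.55% of genes. The windows of Slfn8 and Slfn9 were 80.5% identical over their aligned length, while the other pairs of members lay between 41.9% and 49.4%. A match of letters is a description of the window and does not show that a factor binds there.

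Copies in this family also limit the counts. Of the distinct 50-base stretches in each gene's transcripts, 14.6% of those of Slfn8 and 11.9% of those of Slfn9 occur in another annotated gene, mainly the pseudogene Slfn10-ps. The share was 16.0% for Slfn3, mainly with Slfn4, and 11.3% for Slfn4, mainly with Slfn3. It was 0.606% for Slfn1 and 4.27% for Slfn2. For Slfn5 it was 11.1%, mainly with the overlapping antisense gene Slfn5os, which had 0 to 2 counts per library. How the authors' counting treated such reads is not given in the sources used here. The values of Slfn3, Slfn4, Slfn5, Slfn8 and Slfn9 are therefore uncertain to that extent.

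Slfn2 was the most abundant member in all 5 groups and Slfn1 the next, on the scale of CPM per kb of exon. Slfn2 averaged 101 ± 6.93 CPM per kb in ILTCkP and 295 ± 11.2 CPM per kb in CD8SP (SD, n = 2 each). It averaged 155 ± 96.0 CPM per kb in NK1.1+ ILTCk, 115 ± 48.2 CPM per kb in NK1.1- ILTCk and 149 ± 50.9 CPM per kb in PD1+ Tconv (SD, n = 2 each). Its 2 libraries stood above both Slfn1 libraries in every group. Slfn1 averaged 7.43 ± 0.517 CPM per kb in ILTCkP and 110 ± 1.15 CPM per kb in CD8SP. It averaged 16.3 ± 12.5 CPM per kb in NK1.1+ ILTCk, 14.1 ± 3.36 CPM per kb in NK1.1- ILTCk and 34.3 ± 5.19 CPM per kb in PD1+ Tconv. Slfn1 and the next gene in the order did not overlap in ILTCkP, CD8SP and PD1+ Tconv, but overlapped in NK1.1+ ILTCk (Slfn4 next) and NK1.1- ILTCk (Slfn8 next). Below them the order differed by group: Slfn5 followed in ILTCkP, where its libraries overlapped those of Slfn8, and Slfn8 followed in CD8SP, NK1.1- ILTCk and PD1+ Tconv. Slfn4 came next after Slfn1 in NK1.1+ ILTCk, at 9.93 ± 9.06 CPM per kb, where it overlapped Slfn8. Slfn3 had the lowest mean in the 3 groups of the tumour table, and Slfn4 the lowest in both thymic groups. In PD1+ Tconv the libraries of Slfn3 (1.39 and 0.546 CPM per kb) overlapped those of Slfn4 (0.233 and 6.74 CPM per kb).

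**Figure D1:**
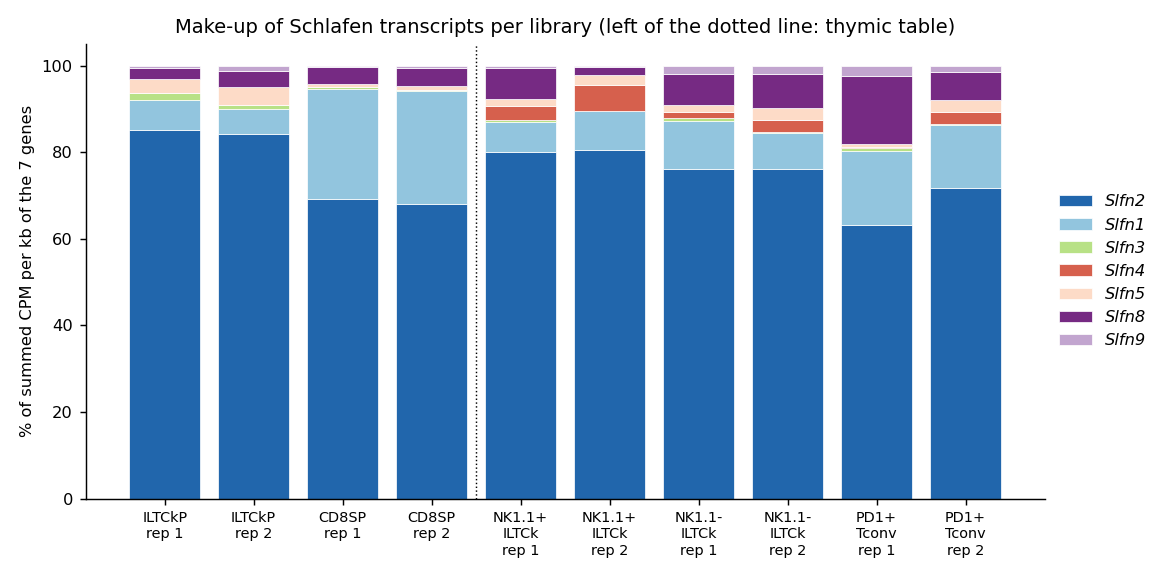
Each bar is 1 library, and its segments give the share (percent) of each of the 7 genes in the summed Schlafen level on the CPM per kb scale; thymic libraries stand left of the dotted line. Slfn1 makes up 6.89% and 5.61% in the ILTCkP bars and 25.4% and 26.0% in the CD8SP bars.

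The make-up of the family's transcripts followed these levels. Slfn2 made up 85.1% and 84.3% of the summed level per kb in ILTCkP, against 69.2% and 68.1% in CD8SP. In the tumour table its share was 80.1% and 80.4% in NK1.1+ ILTCk and 76.2% in each NK1.1- ILTCk library, against 63.1% and 71.7% in PD1+ Tconv. The summed level itself was 113 and 126 CPM per kb in ILTCkP, against 438 and 422 CPM per kb in CD8SP.

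The first comparison set the thymic progenitors of ILTCk against conventional CD8 thymocytes. Slfn1, Slfn2 and Slfn8 fell in ILTCkP, by 14.9-fold, 2.91-fold and 4.66-fold, while Slfn3, Slfn5 and Slfn9 did not pass the test and Slfn4 was too low to be tested. Calls were made at adjusted p-values under 0.05 in edgeR's quasi-likelihood test, adjusted by Benjamini-Hochberg over all 14634 genes tested. Of the 6 members tested, 3 fell and 0 rose, where edgeR called 1.33% of all genes tested lower and 3.38% higher. The median log2 fold change was -1.10 over the 6 members and 0.01 over all genes tested. In 4 of the 6 (Slfn1, Slfn2, Slfn8 and Slfn9) both ILTCkP libraries lay below both CD8SP libraries, as they did in 29.3% of all genes tested.

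**Figure D2:**
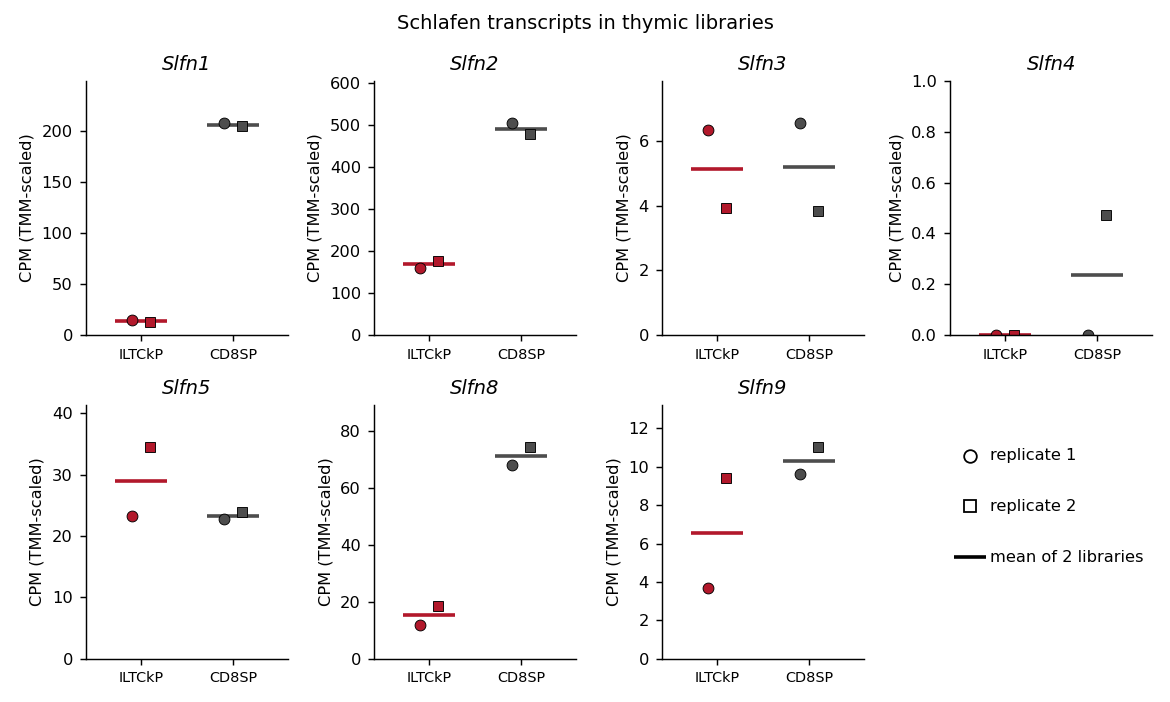
Each panel gives the level of 1 gene in CPM on its own linear axis; points are the 4 thymic libraries (circles replicate 1, squares replicate 2) and bars the mean of 2. The ILTCkP points of Slfn1 lie at 14.5 and 13.2 CPM, against 207 and 204 CPM for CD8SP, and the groups are also apart for Slfn2 and Slfn8.

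Slfn1, the short form first described in thymocytes, stood at 14.5 and 13.2 CPM in the ILTCkP libraries, against 207 and 204 CPM in the CD8SP libraries. The replicates lay close together in each group and the groups were far apart. In edgeR the log2 fold change was -3.89 ± 0.24 (SE; edgeR adjusted p = 0.00329), the 13th smallest p-value of the comparison. It was called in all 11 alternative analyses, with adjusted p-values of edgeR, DESeq2 or limma-voom up to 0.00373.

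Slfn2, the quiescence factor, stood at 160 and 177 CPM in ILTCkP, against 504 and 478 CPM in CD8SP. Its groups did not overlap. This was a log2 fold change of -1.54 ± 0.20 (edgeR adjusted p = 0.0163). The call was kept in 9 of 11 alternatives and lost when either CD8SP library was left out, with an edgeR adjusted p of 0.0802 without replicate 1 and 0.0574 without replicate 2, in a range over the alternatives of 6.06e-07 to 0.0802.

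Slfn8, a long form, stood at 11.8 and 18.7 CPM in ILTCkP, against 68.0 and 74.4 CPM in CD8SP. All ILTCkP values were below all CD8SP values. Its log2 fold change was -2.22 ± 0.34 (edgeR adjusted p = 0.0254), and it was called in 11 of 11 alternatives. Slfn10-ps, the pseudogene that shares sequence with it, stood at 22.6 and 39.6 CPM in ILTCkP and 26.0 and 24.7 CPM in CD8SP (0.29 ± 0.36, edgeR adjusted p = 0.675).

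Slfn9, the long form most like Slfn8 in its promoter, stood at 3.66 and 9.40 CPM in ILTCkP, against 9.61 and 11.0 CPM in CD8SP. ILTCkP replicate 1 was low, and replicate 2 lay just under the lower CD8SP library. A log2 fold change of -0.66 ± 0.53 did not pass the test (edgeR adjusted p = 0.510). Without ILTCkP replicate 2 it was -1.50, and without ILTCkP replicate 1 it was -0.13, each with a lone ILTCkP library. Slfn9 was called in 1 of 11 alternatives, the first of these 2 fits, which called far more genes of all kinds than the main fit. With all 4 thymic libraries kept, the alternatives gave -0.80 to -0.65 and did not call it.

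Slfn5, a long form, stood at 23.4 and 34.5 CPM in ILTCkP and 22.8 and 23.9 CPM in CD8SP. The groups overlapped (log2 fold change 0.31 ± 0.33, edgeR adjusted p = 0.616). Slfn3, an intermediate form, stood at 6.34 and 3.92 CPM in ILTCkP and 6.55 and 3.83 CPM in CD8SP, so that replicate 1 was the higher in both groups (-0.02 ± 0.50, edgeR adjusted p = 0.987). Slfn4, known from myeloid cells, had 0 counts in both ILTCkP libraries, which allows up to 0.118 and 0.0919 CPM at a floor of 3 counts. It had 0 and 15 counts in the CD8SP libraries, the 15 being 0.474 CPM in replicate 2. That floor covers counting error only.

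Apart from Ccr7 in the dendritic cell list, marker lists of other cells were low in both thymic groups. The dendritic cell list summed to 122 and 55.2 CPM in ILTCkP and 1475 and 1215 CPM in CD8SP, of which Ccr7, a chemokine receptor gene that thymocytes also express, made up 117 and 46.2 CPM in ILTCkP and 1468 and 1210 CPM in CD8SP. The neutrophil list summed to 63.6 and 11.1 CPM in ILTCkP and 52.1 and 39.9 CPM in CD8SP. The macrophage list, given above, was at most 138 CPM.

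Interferon-stimulated genes were lower in ILTCkP as a list. Of 30 such genes, 14 fell and 0 rose by edgeR, which called 1.33% of all genes tested lower and 3.38% higher. In 29 of the 30 the log2 fold change was negative, with a median of -1.76 against 0.01 over all genes tested. Ifit1, which blocks translation of viral RNA, stood at 7.44 and 9.03 CPM in ILTCkP against 99.9 and 110 CPM in CD8SP (log2 fold change -3.67 ± 0.28, edgeR adjusted p = 0.00577). Oas2, which senses double-stranded RNA, stood at 1.85 and 1.04 CPM in ILTCkP against 27.1 and 26.5 CPM in CD8SP (-4.22 ± 0.45, edgeR adjusted p = 0.0102). Rtp4, an interferon-induced chaperone gene, stood at 40.7 and 43.2 CPM in ILTCkP and 203 and 193 CPM in CD8SP (-2.24 ± 0.22, edgeR adjusted p = 0.00831).

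Among 16 genes of interferon receptors and signalling, 1 rose and 2 fell by edgeR, which called 3.38% of all genes tested higher and 1.33% lower. Irf9, which encodes a transcription factor that acts downstream of the type I interferon receptor, was among those that fell, by 1.11 ± 0.21 on the log2 scale (edgeR adjusted p = 0.0441). It stood at 123 and 117 CPM in ILTCkP and 274 and 243 CPM in CD8SP. Irf8, a transcription factor of the same family as Irf9, rose by 1.54 ± 0.27 (edgeR adjusted p = 0.0353), with 58.2 and 57.6 CPM in ILTCkP and 19.5 and 20.2 CPM in CD8SP.

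Other genes of T cell quiescence did not pass the test: 0 of 15 tested were called by edgeR, and 1 fell by DESeq2, which called 4.82% of all genes lower. That gene was Bach2, a repressor of effector genes, at 41.6 and 44.8 CPM in ILTCkP and 85.3 and 93.8 CPM in CD8SP (log2 fold change -1.05 ± 0.24, edgeR adjusted p = 0.0711, DESeq2 adjusted p = 0.00584). Foxp1 and Vsir, both needed to keep T cells at rest, had log2 fold changes of -0.77 ± 0.21 and -0.81 ± 0.27 (edgeR adjusted p = 0.108 and 0.167). Of 15 proliferation genes, 1 fell and 0 rose by edgeR, which called 1.33% of all genes tested lower and 3.38% higher. That gene was Top2a, a topoisomerase of dividing cells, at 151 and 223 CPM in ILTCkP and 547 and 543 CPM in CD8SP (-1.54 ± 0.26, edgeR adjusted p = 0.0334). Mki67, which marks dividing cells, stood at 23.3 and 49.9 CPM in ILTCkP and 108 and 107 CPM in CD8SP and did not pass (-1.55 ± 0.40, edgeR adjusted p = 0.0947). Pcna, a replication clamp gene, did not pass either (-0.88 ± 0.21, edgeR adjusted p = 0.0801).

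Of 10 tested genes of transfer RNA cleavage and the linked stress response, 2 rose and 0 fell by edgeR. Over all genes tested it called 3.38% higher and 1.33% lower. Of the 10 log2 fold changes, 5 were positive and 5 negative, with a median of 0.08 against 0.01 over all genes tested. Rnh1, which encodes the inhibitor of the ribonuclease angiogenin, stood at 319 and 211 CPM in ILTCkP and 87.1 and 76.2 CPM in CD8SP (log2 fold change 1.70 ± 0.28, edgeR adjusted p = 0.0317). Sesn2, a stress-induced regulator of mTORC1, stood at 70.2 and 57.7 CPM in ILTCkP and 11.6 and 11.4 CPM in CD8SP (2.48 ± 0.29, edgeR adjusted p = 0.0121). Eif2ak4, a kinase that senses uncharged transfer RNA, did not pass (1.24 ± 0.36, edgeR adjusted p = 0.121).

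Of the 10 nearest protein-coding genes on both sides of the Schlafen cluster, 6 were tested and 0 were called by edgeR in ILTCkP against CD8SP. With 3.38% of all genes tested called higher and 1.33% lower, 0 of 6 is too few to tell them from other genes. Their log2 fold changes lay between -0.82 and 1.84. In the tumour table, where the main edgeR fits called no gene at all, they lay between -0.92 and 0.63 in NK1.1+ ILTCk against PD1+ Tconv, between -1.54 and 0.86 in NK1.1- ILTCk against PD1+ Tconv, and between -0.43 and 0.62 in NK1.1+ ILTCk against NK1.1- ILTCk. The values 1.84, -0.92, -1.54 and 0.62 belong to 1700020L24Rik, a gene of low counts. It averaged 1.58 CPM in the thymic libraries and 0.901 CPM in the tumour table.

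The second comparison set NK1.1+ ILTCk against PD1+ Tconv in tumours. Slfn9 was 6.11-fold and Slfn8 3.45-fold lower on average in NK1.1+ ILTCk, but no member passed in the main edgeR fit, which used group alone. With the replicate number as a block Slfn9 passed (edgeR adjusted p = 0.0203). Of 18091 genes tested, the main fit called 0 (0%), with 2590 at an unadjusted p under 0.05 (14.3%). Even Pdcd1, the gene of the sort marker PD-1, was not called. It had the smallest p-value there, with a log2 fold change of -6.67 ± 0.57 (edgeR adjusted p = 0.0725). With DESeq2, 664 were called higher (3.67%) and 605 lower (3.34%); limma-voom called 3 genes, all lower (0.0166%). Of the 7 members, all tested, 2 (Slfn8 and Slfn9) were at an unadjusted p under 0.05, and these 2 were called lower by DESeq2. In 4 of the 7 (Slfn1, Slfn3, Slfn8 and Slfn9) both NK1.1+ ILTCk libraries lay below both PD1+ Tconv libraries, as they did in 20.8% of all genes tested. The median log2 fold change was -1.08 over the members and -0.04 over all genes tested.

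**Figure D3:**
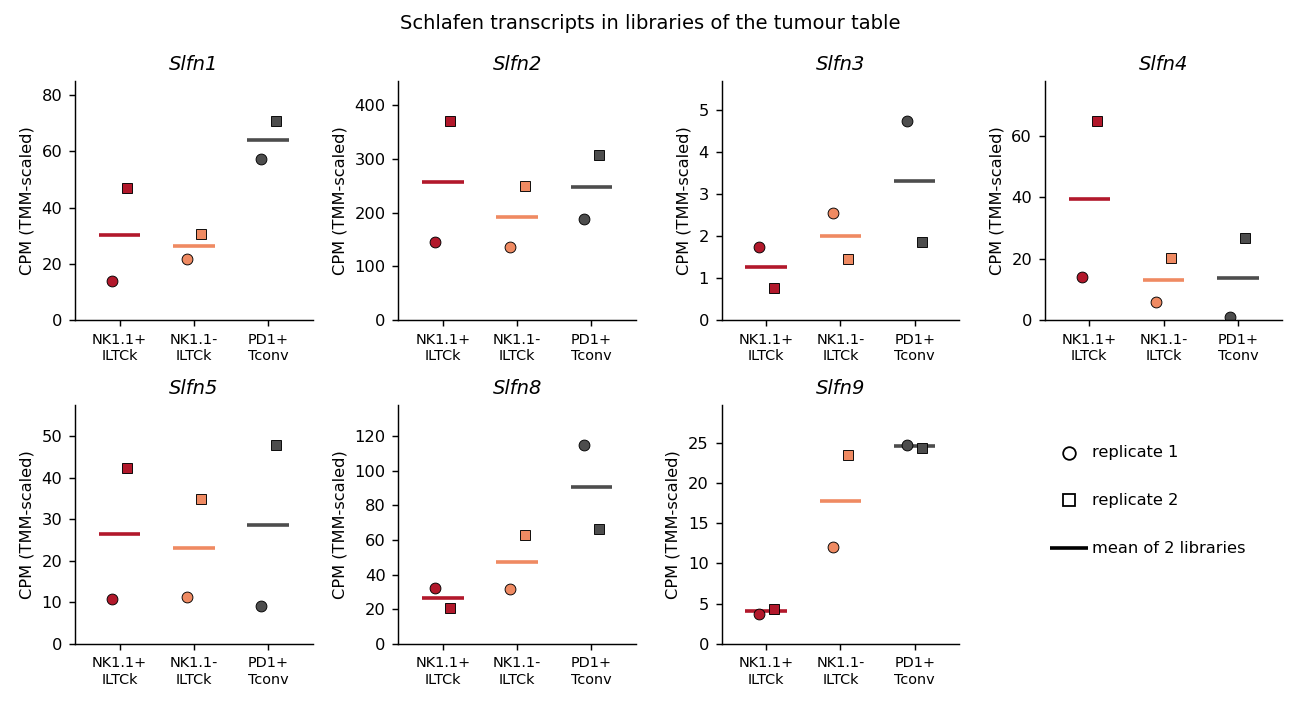
Each panel gives the level of 1 gene in CPM on its own linear axis; points are the 6 libraries of the tumour table (circles replicate 1, squares replicate 2) and bars the mean of 2. The Slfn9 points lie at 3.71 and 4.33 CPM in NK1.1+ ILTCk, at 12.0 and 23.5 CPM in NK1.1- ILTCk and at 24.8 and 24.4 CPM in PD1+ Tconv, and replicate 2 of each group is the higher for Slfn2, Slfn4 and Slfn5.

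Slfn9 stood at 3.71 and 4.33 CPM in NK1.1+ ILTCk, against 24.8 and 24.4 CPM in PD1+ Tconv. Both groups were tight and they did not overlap. On the log2 scale the fold change was -2.61 ± 0.51, with an edgeR adjusted p of 0.117. With the replicate number as a block edgeR gave an adjusted p of 0.0203 and called 755 genes (432 higher, 2.39%, and 323 lower, 1.79%), and DESeq2 gave 6.71e-05, in a range over 14 alternatives of 6.71e-05 to 0.492. With no filter on low counts edgeR also called it (adjusted p = 0.00279), where 1.77% of all genes were called lower. Without PD1+ Tconv replicate 2, the library that stood furthest apart, it was -2.65 (edgeR adjusted p = 0.180), and without NK1.1+ ILTCk replicate 2, which was high in Mucl2, it was -2.72 (edgeR adjusted p = 0.492).

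Slfn8 stood at 32.0 and 20.7 CPM in NK1.1+ ILTCk, against 115 and 66.6 CPM in PD1+ Tconv. The groups did not overlap, and PD1+ Tconv replicate 1 was the highest of the 6 libraries of the table. The log2 fold change was -1.79 ± 0.51 (edgeR adjusted p = 0.217). DESeq2 gave an adjusted p of 0.0311 and edgeR with no filter 0.0186, in a range over 14 alternatives of 0.0186 to 0.839. Without PD1+ Tconv replicate 2 it was -2.16 (edgeR adjusted p = 0.205), and without NK1.1+ ILTCk replicate 2 it was -1.50 (edgeR adjusted p = 0.839). The pseudogene Slfn10-ps stood at 3.66 and 3.79 CPM in NK1.1+ ILTCk and 32.6 and 20.3 CPM in PD1+ Tconv (-2.83 ± 0.52, edgeR adjusted p = 0.107, DESeq2 adjusted p = 1.30e-05).

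Slfn1 stood at 13.8 and 46.8 CPM in NK1.1+ ILTCk, against 57.2 and 70.9 CPM in PD1+ Tconv. NK1.1+ ILTCk replicate 1 was the lowest library, and the groups did not overlap (log2 fold change -1.08 ± 0.59, edgeR adjusted p = 0.463). Slfn2 stood at 145 and 371 CPM in NK1.1+ ILTCk and 188 and 308 CPM in PD1+ Tconv. Its replicates differed more than its groups (0.05 ± 0.58, edgeR adjusted p = 0.978). Slfn3 was near the low end of what was measured, at 1.74 and 0.766 CPM in NK1.1+ ILTCk against 4.74 and 1.86 CPM in PD1+ Tconv (-1.40 ± 0.85, edgeR adjusted p = 0.514).

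Slfn5 stood at 10.7 and 42.4 CPM in NK1.1+ ILTCk, 11.3 and 34.9 CPM in NK1.1- ILTCk and 9.10 and 48.0 CPM in PD1+ Tconv. Replicate 2 was the higher in each of the 3 groups, as for Slfn2 and Slfn4, and the groups overlapped throughout. The part of the gland transcripts in these replicate differences was not tested. The log2 fold change of NK1.1+ ILTCk over PD1+ Tconv was -0.10 ± 0.96 (edgeR adjusted p = 0.975).

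Slfn4 stood at 14.0 and 64.8 CPM in NK1.1+ ILTCk, against 0.923 and 26.7 CPM in PD1+ Tconv. In each group replicate 2 was the higher, and the groups overlapped. The log2 fold change was 1.52 ± 1.38 (edgeR adjusted p = 0.677), and between 0.04 and 5.37 when 1 library was left out.

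**Figure D4:**
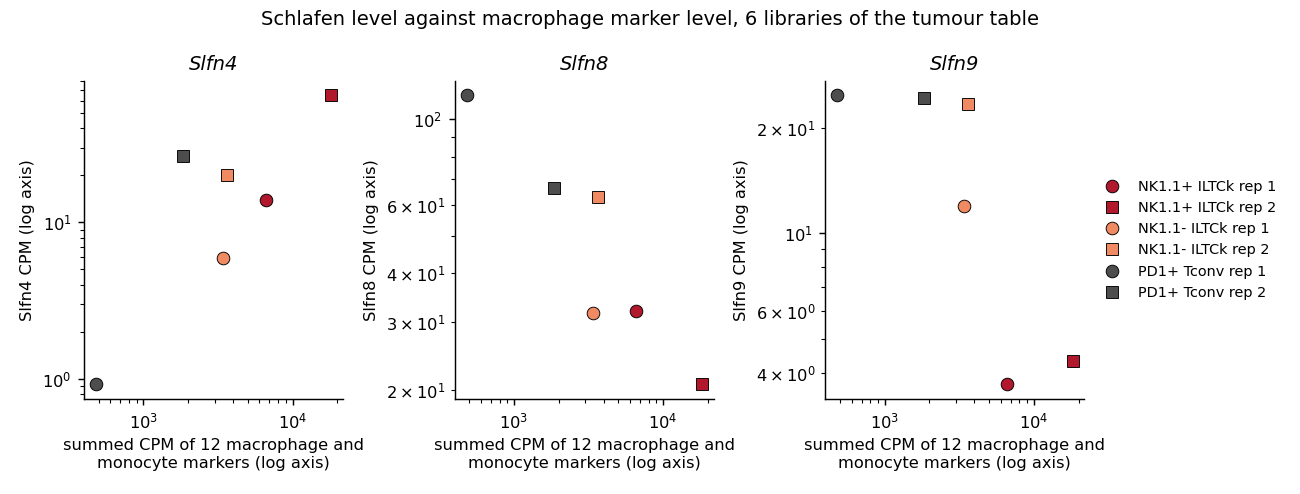
Each point is 1 of the 6 libraries of the tumour table; the x axis is the summed CPM of 12 macrophage and monocyte markers and the y axis the CPM of Slfn4, Slfn8 or Slfn9, all on log axes. NK1.1+ ILTCk replicate 2 has the highest marker sum (18220 CPM) and the highest Slfn4 level (64.8 CPM), and PD1+ Tconv replicate 1 has the lowest of both (480 and 0.923 CPM) and the highest Slfn8 level (115 CPM).

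Member levels were set beside the macrophage and monocyte marker sum across the 6 libraries of the tumour table. On a log2 scale Pearson's r was 0.82 for Slfn4, -0.93 for Slfn8, -0.92 for Slfn3 and -0.80 for Slfn9. It was -0.40 for Slfn1, 0.28 for Slfn2 and 0.40 for Slfn5. These 6 points share groups, replicate numbers and library depth, so r is only a description of these libraries. How many of all genes reach such values of r was not counted. The T cell marker sum was 3668 and 769 CPM in NK1.1+ ILTCk and 1917 and 1383 CPM in NK1.1- ILTCk, against 5782 and 4030 CPM in PD1+ Tconv. The part of these other cells in the Schlafen values was not tested.

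The other lists gave no call in the main edgeR fit of this comparison. Of the 30 interferon-stimulated genes, 0 were called by edgeR and 4 fell by DESeq2, which called 3.34% of all genes tested lower. The median log2 fold change of the list was -0.36, against -0.04 over all genes tested. Parp14, an interferon-induced ADP-ribosyltransferase gene, stood at 45.2 and 41.1 CPM in NK1.1+ ILTCk and 134 and 151 CPM in PD1+ Tconv (-1.72 ± 0.42, edgeR adjusted p = 0.172, DESeq2 adjusted p = 0.00682).

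Of 16 tested quiescence genes, DESeq2 called 2 lower, where it called 3.34% of all genes tested lower. These were Tcf7, at 19.1 and 14.2 CPM in NK1.1+ ILTCk and 125 and 50.5 CPM in PD1+ Tconv (DESeq2 adjusted p = 0.00248), and Lef1 (DESeq2 adjusted p = 0.00381), both transcription factors of naive and memory T cells. Their edgeR adjusted p-values were 0.162 and 0.184. The quiescence list was split evenly, with 8 log2 fold changes negative and 8 positive. Its median was -0.24, against -0.04 over all genes tested. Of 15 proliferation genes DESeq2 called 3 lower, Mki67, Cdk6 and Ccnd2, beside the same 3.34% of all genes tested. Most of that list went the other way, with 10 log2 fold changes positive and 5 negative. Its median was 0.24, against -0.04 over all genes tested. Mki67 stood at 20.2 and 9.20 CPM in NK1.1+ ILTCk and 155 and 78.1 CPM in PD1+ Tconv (-2.99 ± 0.59, edgeR adjusted p = 0.119). Of 12 transfer RNA and stress genes neither tool called any. Rnh1 stood at 323 and 422 CPM in NK1.1+ ILTCk and 144 and 217 CPM in PD1+ Tconv (1.04 ± 0.41, edgeR adjusted p = 0.322).

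The third comparison set NK1.1- ILTCk against PD1+ Tconv, the same PD1+ Tconv libraries as in the second. No member passed the test. The 7 log2 fold changes were negative in the main edgeR fit, but not in every alternative. That of Slfn4 was 0.86 with the replicate number as a block, and with limma-voom those of Slfn4 and Slfn5 were 1.54 and 0.0912. With 1 library left out, those of Slfn2, Slfn3, Slfn4 and Slfn5 reached 0.0127, 0.12, 3.79 and 1.32. EdgeR called 0 of 18091 genes (0%; 2147 at an unadjusted p under 0.05, 11.9%), limma-voom 0, and DESeq2 391 higher (2.16%) and 317 lower (1.75%), with 0 members among any of them. With the replicate number as a block edgeR called 298 genes (1.65%) and 0 members. In 3 of the 7 (Slfn1, Slfn8 and Slfn9) both NK1.1- ILTCk libraries lay below both PD1+ Tconv libraries, as they did in 22.7% of all genes tested.

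Slfn1 stood at 21.9 and 30.7 CPM in NK1.1- ILTCk, against 57.2 and 70.9 CPM in PD1+ Tconv (log2 fold change -1.28 ± 0.59, edgeR adjusted p = 0.442). Slfn8 stood at 31.5 and 63.0 CPM in NK1.1- ILTCk, against 115 and 66.6 CPM in PD1+ Tconv (-0.94 ± 0.50, edgeR adjusted p = 0.491). Slfn9 stood at 12.0 and 23.5 CPM in NK1.1- ILTCk, against 24.8 and 24.4 CPM in PD1+ Tconv (-0.47 ± 0.48, edgeR adjusted p = 0.724). For Slfn9, NK1.1- ILTCk replicate 2 lay just under both PD1+ Tconv libraries and replicate 1 well below. For Slfn8, NK1.1- ILTCk replicate 2 lay just under PD1+ Tconv replicate 2 and well below PD1+ Tconv replicate 1. Slfn2 stood at 135 and 249 CPM in NK1.1- ILTCk, against 188 and 308 CPM in PD1+ Tconv (-0.37 ± 0.58, edgeR adjusted p = 0.840). Slfn4 stood at 5.93 and 20.1 CPM in NK1.1- ILTCk (-0.08 ± 1.36, edgeR adjusted p = 0.991) and Slfn3 at 2.54 and 1.46 CPM (-0.73 ± 0.84, edgeR adjusted p = 0.762), both overlapping PD1+ Tconv. The log2 fold change of Slfn5 was -0.31 ± 0.97 (edgeR adjusted p = 0.931). In the pathway lists edgeR called 0 genes here. DESeq2, which called 1.75% of all genes tested lower, called 1 of 30 interferon-stimulated genes and 1 of 15 proliferation genes lower.

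The fourth comparison set NK1.1+ ILTCk against NK1.1- ILTCk. Slfn9 was the 1 member whose libraries did not overlap, at 3.71 and 4.33 CPM in NK1.1+ ILTCk against 12.0 and 23.5 CPM in NK1.1- ILTCk, and 18.9% of all genes tested were likewise lower without overlap. Its log2 fold change was -2.14 ± 0.50, or 4.41-fold lower, and it did not pass edgeR's test (adjusted p = 1.00). DESeq2 called it lower (adjusted p = 0.0279), in a range over 14 alternatives of 0.0279 to 1.00. Its log2 fold change was -2.26 without NK1.1+ ILTCk replicate 2 and -1.61 without NK1.1- ILTCk replicate 2, the libraries high in Mucl2. EdgeR called 0 of 18091 genes here (0%), with 712 at an unadjusted p under 0.05 (3.94%), limma-voom called 0, and DESeq2 called 36 higher (0.199%) and 21 lower (0.116%). Slfn8 had a log2 fold change of -0.84 ± 0.50, Slfn3 of -0.67 ± 0.84 and Slfn4 of 1.60 ± 1.38, all with overlapping libraries. Those of Slfn1, Slfn2 and Slfn5 were 0.21, 0.42 and 0.20. None of the 6 passed by edgeR (adjusted p = 1.00) or DESeq2, and in the pathway lists neither tool called any gene. The macrophage sum was 6595 and 18220 CPM in NK1.1+ ILTCk against 3399 and 3643 CPM in NK1.1- ILTCk, and its part in the Slfn9 value was not tested.

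**Figure D5:**
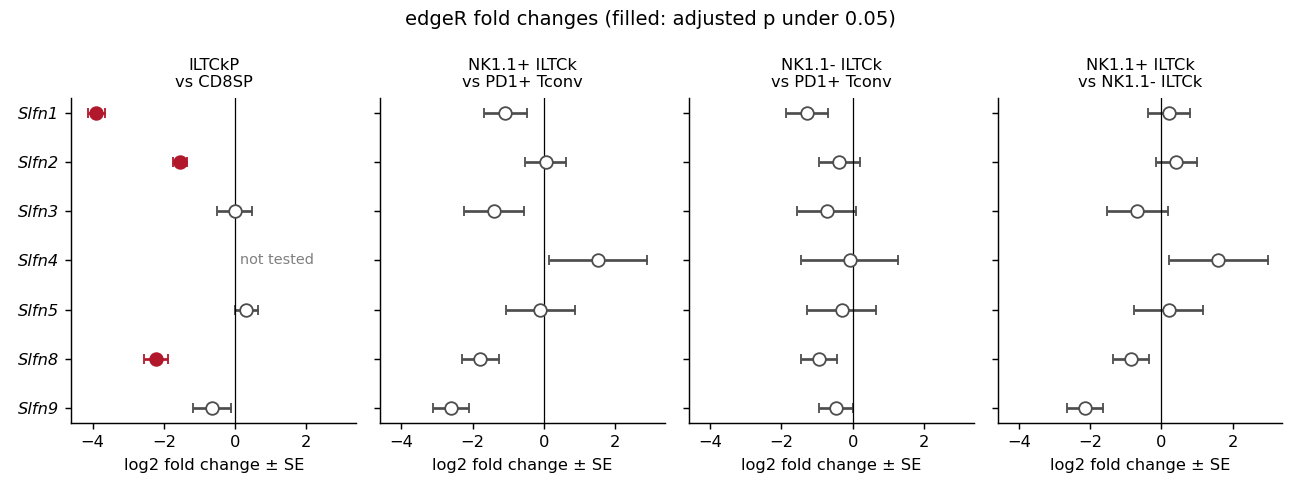
Each panel is 1 comparison. Each point is the log2 fold change of 1 gene in the main edgeR fit, which used group alone, with its standard error as bars. Filled points passed an adjusted p of 0.05. In ILTCkP against CD8SP the filled points are Slfn1 (-3.89), Slfn8 (-2.22) and Slfn2 (-1.54), and no point is filled in the 3 tumour comparisons, which share libraries with one another.

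Among genes outside the family, likeness was measured as Pearson's r of log2(CPM + 1) over the 6 libraries of the tumour table, among 9848 genes with a mean of at least 10 CPM. With so few libraries in 3 groups, high values are easily reached, and r is only a description. The genes most like Slfn9 were Pde4d, Icos and Il7r (r = 0.99 each). Those most like Slfn8 were Uhrf2 (1.00), Rnf138 (0.99) and Ifi208 (0.99). Those most like Slfn4 were Tnfaip2 (1.00), Prdx5 and Marc2 (0.99 each), and those most like Slfn5 were Acod1, Cnmd and Ext1 (0.99 each). Slfn1 was most like Mad2l1bp, Slc25a28 and Polg2 (0.98 each). Slfn2 was most like 4933434E20Rik (0.98), Ppp1r14b and Fosb (0.97 each). Slfn3 averaged under 10 CPM and was left out. Within the family, the highest r was 0.90, between Slfn2 and Slfn5, followed by 0.86 between Slfn8 and Slfn9, and the lowest was -0.97, between Slfn3 and Slfn4.

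The remaining family genes were close to 0. Slfn14 did not pass 0.324 CPM in any library and the Schlafen-like gene Slfnl1 did not pass 0.0318 CPM, and neither was tested.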

How the data were processed

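Bulk RNA-sequencing libraries of 5 groups, 2 libraries each, were used. The values were whole-number counts per gene in 2 tables deposited by the authors, 1 with 4 thymic and 1 with 6 tumour-table libraries, and the labels call them raw. The submitters' processing notes name mm10 as genome and DESeq, with no version, among the authors' tools. For aligner, read counter and annotation, nothing is given in the sources used here.

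Each table was fitted on its own with edgeR 4.0.16 (R 4.3.3): filterByExpr, TMM scaling, glmQLFit with robust estimation, glmQLFTest on group, and Benjamini-Hochberg adjustment over all genes tested. The 3 tumour comparisons shared 1 estimate of the spread. Levels are CPM scaled by TMM, divided by merged exon length (GENCODE M21) where genes are compared. The alternatives were DESeq2 1.42.0, limma-voom (limma 3.58.1), RLE and upper-quartile scaling, no filter, at least 50 counts in 2 libraries, a replicate block, only the compared libraries, and leaving out each library. The edgeR, DESeq2 and limma-voom fits of the first and second comparisons were also tested on simulated data.

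Replicate numbers were checked by correlating, across genes, the difference between replicates 1 and 2 of each group. The correlations were 0.361, 0.325 and 0.337 in the tumour table, all above 0.1. On this hint from the data its numbers were taken as a possible pairing, since the labels name no shared animal, day or batch. The main fits used group alone and ignored that pairing. The fits with the replicate block, given as alternatives, took it into account. The thymic value was 0.0918, and those numbers were not taken as pairs.

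Promoter windows came from RefSeq and were searched with Biopython 1.88 and Python 3.11.15. All 7 members were described whatever their result, and of each pathway list up to 3 genes with the smallest p-value in the thymic comparison and in NK1.1+ ILTCk against PD1+ Tconv. The members and the lists (interferon-stimulated genes, interferon signalling, quiescence, proliferation, transfer RNA cleavage and stress) were chosen with earlier results of these data known. A gene of the interferon signalling list is not reported here by name.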

Additional observations from a re-analysis of the deposited data

How the results depend on the processing

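Among the values of single members under the alternatives, 324 kept their direction and their side of the threshold, 27 changed sign, 7 passed the threshold anew and 2 lost it; no value of Slfn1, Slfn2 or Slfn8 changed sign in ILTCkP against CD8SP. RLE and upper-quartile scaling changed the sign of no member. In that comparison 3 members were called with the replicate block, as without it, and 2 to 4 when 1 library was left out, while the block called 2212 genes in all, no filter 2535, DESeq2 1997 and the fits with 1 library left out 592 to 7017, against 689. In NK1.1+ ILTCk against PD1+ Tconv, 2 members were called with no filter, 2 with DESeq2 and 1 with the replicate block, against 0, and over all genes 1249, 1269 and 755. In NK1.1- ILTCk against PD1+ Tconv 0 members were called under each alternative, while over all genes no filter called 799, DESeq2 708 and the block 298, against 0. In NK1.1+ ILTCk against NK1.1- ILTCk, 1 member was called with DESeq2 and 0 with the replicate block, and over all genes 167 with no filter and 57 with DESeq2, against 0. The 3 tumour comparisons gave 0 members with each library left out. The cause of these differences was not tested.

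Every change of sign was in a log2 fold change that no test called. In ILTCkP against CD8SP, leaving out 1 library gave -0.39 to 0.44 for Slfn3 and -0.0014 to 0.57 for Slfn5. In NK1.1+ ILTCk against PD1+ Tconv, Slfn2 was -0.0621 with limma-voom and -0.0506 with the replicate block, and -0.77 to 0.59 with 1 library left out; Slfn5 was 0.25, 0.0109 and -1.40 to 1.51. In NK1.1- ILTCk against PD1+ Tconv, Slfn4 was 1.54 with limma-voom and 0.86 with the replicate block, and -1.15 to 3.79 with 1 library left out. Slfn5 was 0.0912 with limma-voom and -1.28 to 1.32 with 1 library left out, Slfn2 -0.83 to 0.0127 and Slfn3 -1.25 to 0.12. In NK1.1+ ILTCk against NK1.1- ILTCk, Slfn1 was -0.014 with limma-voom, and with 1 library left out Slfn1 was -0.93 to 0.83, Slfn2 -0.41 to 0.95 and Slfn5 -1.11 to 1.20. With 2 libraries a group, leaving out 1 leaves a lone library that is assumed to vary like the others. Depth limited Slfn3 in the tumour table (17 to 149 counts) and Slfn4 in the thymus (0 to 15 counts).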
